A study of Homo sapiens with 6 samples.

Results

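Small nucleolar RNAs (snoRNAs) and small Cajal body-specific RNAs (scaRNAs) are described here in GEN2.2 cells, before and after stimulation of Toll-like receptor 9. GEN2.2 cells were established from a human plasmacytoid dendritic cell leukaemia. Plasmacytoid dendritic cells sense foreign nucleic acids in endosomes. Total RNA of cells with no treatment was hybridised to 3 Illumina HumanHT-12 v4 bead arrays, and RNA of cells given 1 µM ODN2006 for 2 h to 3 more. ODN2006 is a synthetic CpG oligonucleotide and a ligand of this receptor, and no control oligonucleotide was part of the comparison. Members were chosen by symbol and by detection on the array: they were genes with a SNORD, SNORA or SCARNA symbol and a number in the platform annotation, apart from the SNORD3 genes, that had a probe detected (detection p-value under 0.01) on all 3 untreated or all 3 ODN2006 arrays. Of 298 genes with such symbols, 101 met this rule, among 8706 genes tested in all. They comprised 53 SNORD, 39 SNORA and 9 SCARNA genes.

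SnoRNAs guide chemical modification of ribosomal RNA. Box C/D snoRNAs (SNORD) direct 2′-O-methylation by fibrillarin, and box H/ACA snoRNAs (SNORA) direct pseudouridylation by dyskerin. ScaRNAs carry the same boxes, gather in Cajal bodies and guide modification of spliceosomal small nuclear RNAs. Most human snoRNAs are cut from debranched introns of host genes, many of which are ribosomal protein genes or genes of long non-coding RNAs. A labelling kit of this type copies RNA from an oligo(dT) primer, and mature snoRNAs carry no poly(A) tail. Whether a probe measured the mature snoRNA or an intron still held in a host precursor was not tested, so each value is given as the signal of that gene's probe.

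Detection chose the members, and it is given as a description. All 6 arrays detected 78 members, the 3 untreated arrays but not all ODN2006 arrays another 15, and the 3 ODN2006 arrays but not all untreated arrays the remaining 8. By class, 40 box C/D, 31 box H/ACA and 7 scaRNA genes were detected on all 6 arrays. SNORD59B, SNORD87 and SNORD91B lay just inside the rule, each with a deciding detection p of 0.00909. SNORD88B (0.0104), SCARNA14 and SNORA1 (0.0117 each) lay just outside it. Of the 197 genes left out, 159 were detected on no array.

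Each array detected 28.5% to 32.7% of its 47218 probes, with a median raw intensity of 107 to 121. Normalized arrays of a group correlated at 0.983 to 0.991 and arrays of different groups at 0.960 to 0.974. Of 12 markers of plasmacytoid dendritic cells, 10 were detected on all arrays of a group and none of these passed the limma test (1 was lower at an unadjusted p under 0.05). With the replicate block NRP1 was called lower (-0.57, limma adjusted p = 0.044). LILRA4 was detected on 1 array and PTCRA on none. Of 7 monocyte markers, 4 were tested and did not pass, none at an unadjusted p under 0.05 either, with CSF1R and LYZ at changes of -0.22 and -0.38, while S100A8, VCAN and FCN1 were detected on no array. CD3G was the only T cell marker and CD79A the only B cell marker tested, and neither passed. Whether replicates came from separate cultures is not stated, and p-values measure only how these samples varied, which may be technical variation.

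After ODN2006, 9 members were higher and 12 were lower, and 80 were not called, at an adjusted p under 0.05 (limma, Benjamini-Hochberg over 13816 probes). The higher members were 8.91% of all members, where 3.41% of all tested genes were called higher. The lower members were 11.9%, where 1.81% of all tested genes were called lower. Of the higher members, SNORA9, SNORD43, SNORD91B and SNORD95 entered through the ODN2006 arrays alone, which favours a rise. SNORD38A, a lower member, entered through the untreated arrays alone, which favours a fall. Among the 78 members detected on all 6 arrays, 5 were higher and 11 lower. The shares called among all genes so detected are not given here, so these counts have no background beside them. Box C/D genes gave 5 rises and 7 falls and box H/ACA genes 4 and 5. No scaRNA gene passed, although 2 were higher at an unadjusted p under 0.05. The log2 change (ODN2006 minus untreated) ran from 0.74 to 1.89 among the 7 rises detected on at least 1 untreated array and from -0.59 to -1.12 among the falls. SNORA9 and SNORD91B, detected on no untreated array, have only a bound there. Counting the bound of SNORA9, 6 rises and 1 fall reached 2-fold. Without background correction no called member did, and the changes ran from 0.19 to 0.92 among the rises and from -0.25 to -0.52 among the falls. With the replicate number as a block, 13 of the 101 members were higher and 18 lower. Of all tested genes, 4.65% were called higher and 4.11% lower in that fit. All 21 calls of the unblocked fit were among the members called with the block. In such bulk RNA, fewer cells with a transcript and less of it per cell cannot be told apart.

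**Figure D1:**
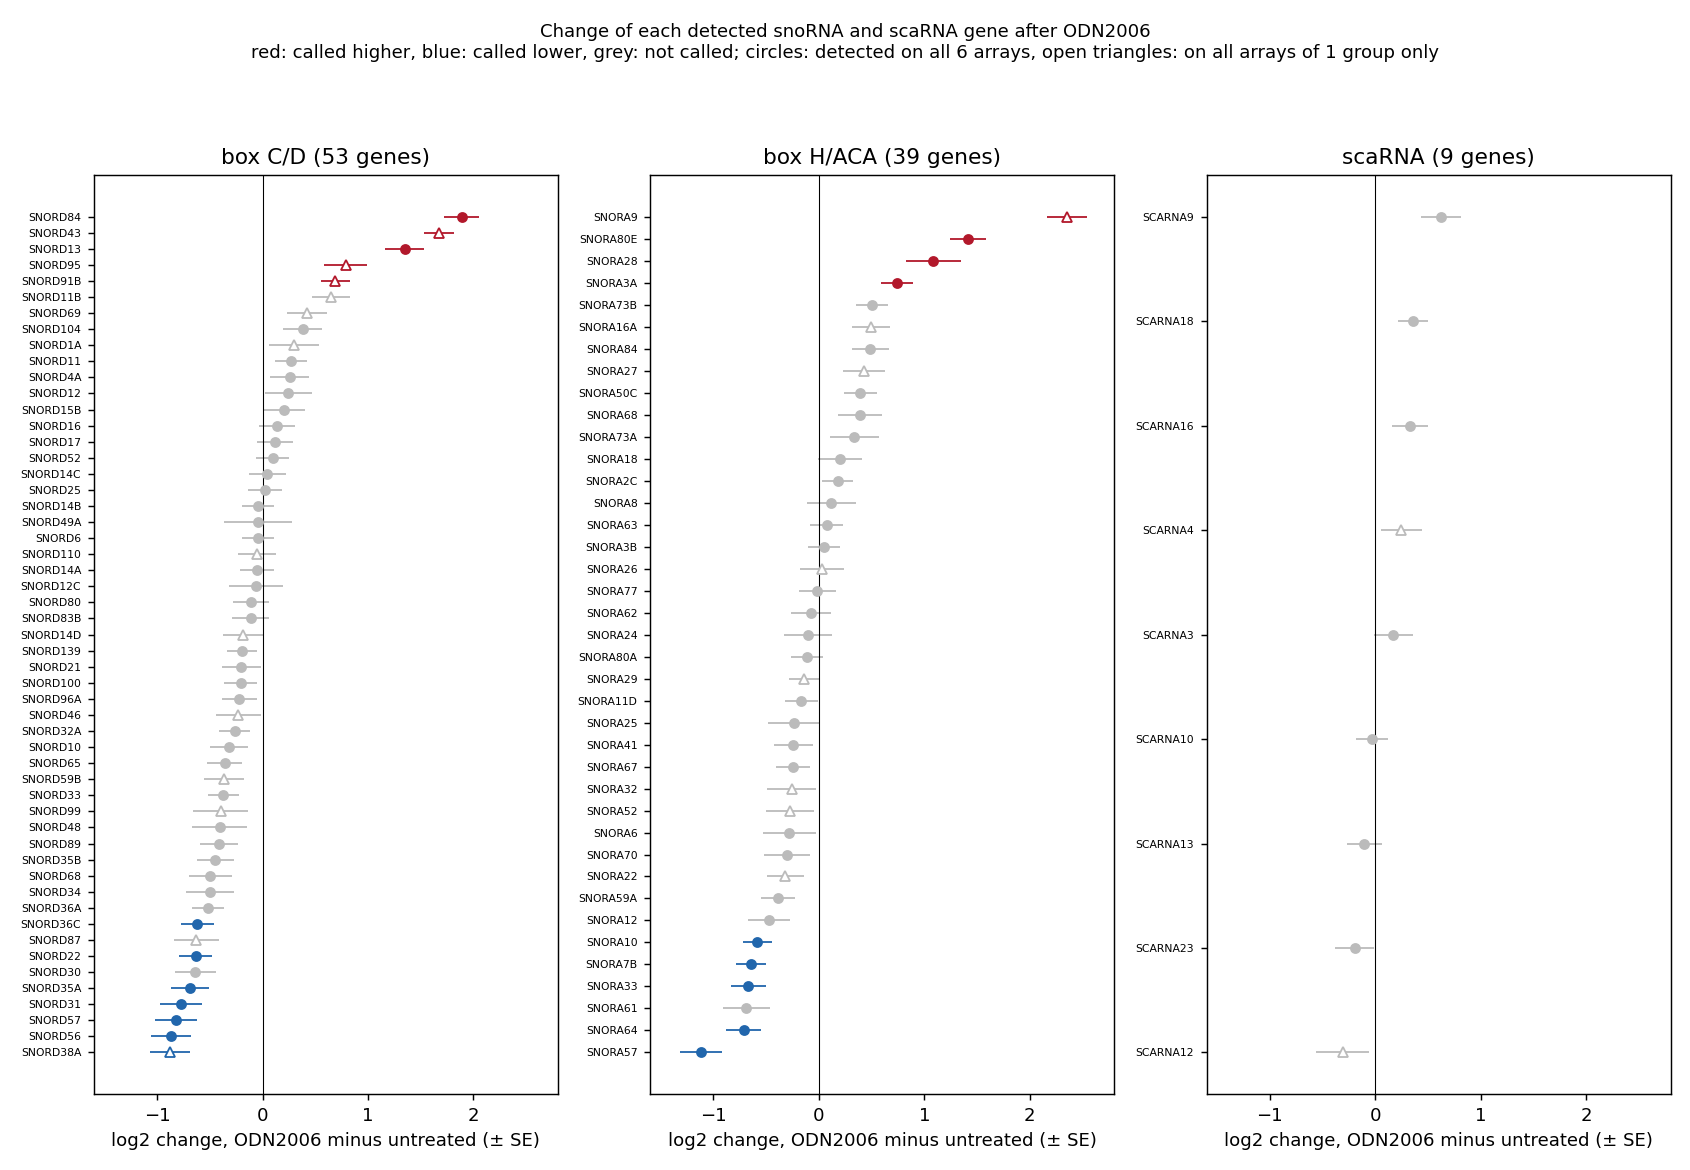
Log2 change (ODN2006 minus untreated, ± SE) of each of the 101 members, ranked within box C/D, box H/ACA and scaRNA genes; red marks members called higher, blue members called lower, grey the rest, and open triangles members not detected on all 6 arrays. SNORA9 and SNORD91B, detected on no untreated array, are drawn at their fitted values, which are no bounds; among the other members the changes run from -1.12 (SNORA57) to 1.89 (SNORD84).

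SNORA9, a box H/ACA gene within the non-coding host SNHG15, rose from below detection. Its log2 intensity was 4.36, 4.68 and 5.01 on the untreated arrays and 6.77, 7.11 and 7.25 on the ODN2006 arrays. The groups were far apart, and no untreated array detected the probe. It was at least 3.50-fold higher after ODN2006, the mean of the ODN2006 arrays set against the lowest signal detected on each untreated array (adjusted p = 6.53e-06 in the limma fit). SNHG15 itself read 9.42, 9.57 and 9.54 untreated and 10.33, 10.23 and 10.58 after ODN2006. It rose by 0.87 ± 0.15 SE (adjusted p = 0.00379), and by 0.85 at its other probe.

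SNORD84 lies within DDX39B, which encodes an RNA helicase of splicing and mRNA export. Its values were 5.83, 5.43 and 5.89 untreated and 7.44, 7.64 and 7.75 after ODN2006, a change of 1.89 ± 0.17 SE (adjusted p = 1.3e-05 in the limma fit). Every ODN2006 array lay above every untreated array by more than the range of either group. DDX39B read 10.45, 10.53 and 10.74 untreated and 10.36, 10.57 and 10.58 after ODN2006, and the difference of -0.07 did not pass.

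SNORD43 lies within RPL3, a gene of the large ribosomal subunit. It read 5.36, 5.20 and 5.41 untreated and 6.95, 6.92 and 7.12 after ODN2006 (change 1.67 ± 0.14 SE, limma adjusted p = 9.75e-06). The 3 values of each group lay close together and the groups stood well apart, though only 2 untreated arrays detected the probe. SNORA80E, a box H/ACA gene within KHDC4, an RNA-binding protein gene linked to splicing, read 5.88, 5.87 and 6.18 untreated and 7.10, 7.42 and 7.65 after ODN2006 (1.41 ± 0.17, adjusted p = 0.000254 in the limma fit). Its host went the other way without passing, from 10.48, 10.84 and 10.86 to 9.96, 10.57 and 10.34 (-0.44, adjusted p = 0.268 in the limma fit).

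SNORD13 is transcribed from its own promoter and helps direct acetylation, not methylation, of small-subunit ribosomal RNA. It lay in no host by the annotation. Its values were 6.96, 7.23 and 7.55 untreated and 8.49, 8.41 and 8.88 after ODN2006, a rise of 1.35 ± 0.19 SE (adjusted p = 0.000697 in the limma fit). All ODN2006 arrays were above all untreated ones. Without SNORD13, 8 of 100 members were higher and 12 lower.

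The remaining rises were smaller or more uneven. SNORA28, within the translation initiation factor gene EIF5, read 5.54, 6.01 and 5.63 untreated and 7.34, 6.97 and 6.14 after ODN2006 (1.09 ± 0.26 SE, limma adjusted p = 0.0322). The ODN2006 arrays spread widely, and replicate 3 lay only just above the highest untreated array. Probes of EIF5 differed in call: the brightest had a change of 0.08, another had 0.78 and passed (limma adjusted p = 0.0334), and the remaining probes had 0.31 and 0.33.

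SNORA3A, within the ribosomal protein gene RPL27A, read 6.06, 6.31 and 6.13 untreated and 6.72, 7.02 and 6.98 after ODN2006 (0.74 ± 0.15 SE, limma adjusted p = 0.0119). SNORD95, within RACK1, a ribosome-bound scaffold gene, read 5.78, 5.02 and 5.02 untreated and 6.02, 5.95 and 6.21 after ODN2006 (0.79 ± 0.20, limma adjusted p = 0.0472). Untreated replicate 1, the only untreated array that detected SNORD95, came close to the ODN2006 arrays. SNORD91B, within TSR1, a gene of small-subunit assembly, read 4.69, 4.74 and 4.88 untreated and 5.51, 5.44 and 5.42 after ODN2006. It was detected on no untreated array and was at least 1.17-fold higher (adjusted p = 0.0109 in the limma fit).

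SNORA57, a box H/ACA gene within CSKMT, a gene for a mitochondrial methyltransferase, fell most and was the only member to fall by more than 2-fold. It read 6.34, 6.96 and 7.16 untreated and 5.73, 5.65 and 5.73 after ODN2006 (-1.12 ± 0.20 SE, limma adjusted p = 0.00449). The ODN2006 values were nearly equal and lay below every untreated array. CSKMT itself was not tested, being missed on at least 1 array in each group.

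Among box C/D genes, SNORD56 and SNORD57 share the host NOP56, which encodes a core protein of the box C/D particle. SNORD56 read 7.44, 7.66 and 7.71 untreated and 6.48, 7.16 and 6.56 after ODN2006 (-0.87 ± 0.19 SE, limma adjusted p = 0.0186). SNORD57 read 7.29, 7.55 and 7.59 untreated and 6.29, 7.10 and 6.58 after ODN2006 (-0.83 ± 0.20, limma adjusted p = 0.0331). In both, ODN2006 replicate 2 came nearest to the untreated arrays. NOP56 read 11.43, 11.27 and 11.10 untreated and 10.90, 11.29 and 10.68 after ODN2006 (-0.31, not passing), with replicate 2 again the highest of the treated arrays. Its other tested probes were lower by a similar amount, -0.44 and -0.32, and did not pass either (limma adjusted p = 0.125 and 0.292).

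SNORD31 and SNORD22 lie within SNHG1, a non-coding host of several box C/D genes. SNORD31 read 7.99, 8.29 and 8.41 untreated and 7.03, 7.61 and 7.73 after ODN2006 (-0.77 ± 0.20 SE, limma adjusted p = 0.0442). SNORD22 read 6.44, 6.55 and 6.80 untreated and 6.14, 5.93 and 5.81 after ODN2006 (-0.63 ± 0.16, limma adjusted p = 0.0375). The groups did not overlap for either gene. SNHG1 fell as well, from 11.01, 11.25 and 10.92 to 10.52, 10.53 and 10.29 (-0.61 ± 0.15, limma adjusted p = 0.0378).

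SNORD38A, another box C/D gene, read 6.30, 6.44 and 6.33 untreated and 5.35, 5.93 and 5.17 after ODN2006, where 1 array detected it, so the size of its fall of -0.88 (limma adjusted p = 0.0187) reaches into background. SNORD35A, within the ribosomal protein gene RPL13A, read 6.75, 7.19 and 7.22 untreated and 6.12, 6.56 and 6.43 after ODN2006 (-0.69, limma adjusted p = 0.0452). SNORD36C, within the ribosomal protein gene RPL7A, read 7.15, 7.22 and 7.49 untreated and 6.82, 6.46 and 6.71 after ODN2006 (-0.62, limma adjusted p = 0.0437). In all 3 genes each ODN2006 array lay below each untreated array.

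The box H/ACA genes SNORA64 and SNORA10 both lie within RPS2. SNORA64 read 7.95, 8.30 and 8.40 untreated and 7.28, 7.66 and 7.57 after ODN2006 (-0.71, limma adjusted p = 0.0295). SNORA10 read 8.36, 8.54 and 8.36 untreated and 7.83, 7.84 and 7.83 after ODN2006 (-0.59, limma adjusted p = 0.0279). Treated SNORA10 values were almost the same on the 3 arrays, and neither gene's groups overlapped.

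SNORA33, within RPS12, read 7.35, 7.76 and 7.76 untreated and 6.76, 6.96 and 7.13 after ODN2006 (-0.67, limma adjusted p = 0.0385). SNORA7B, within the pseudogene RPL32P3, read 6.49, 6.42 and 6.25 untreated and 5.65, 5.81 and 5.76 after ODN2006 (-0.65, limma adjusted p = 0.0193). For both genes all ODN2006 arrays were lower.

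**Figure D2:**
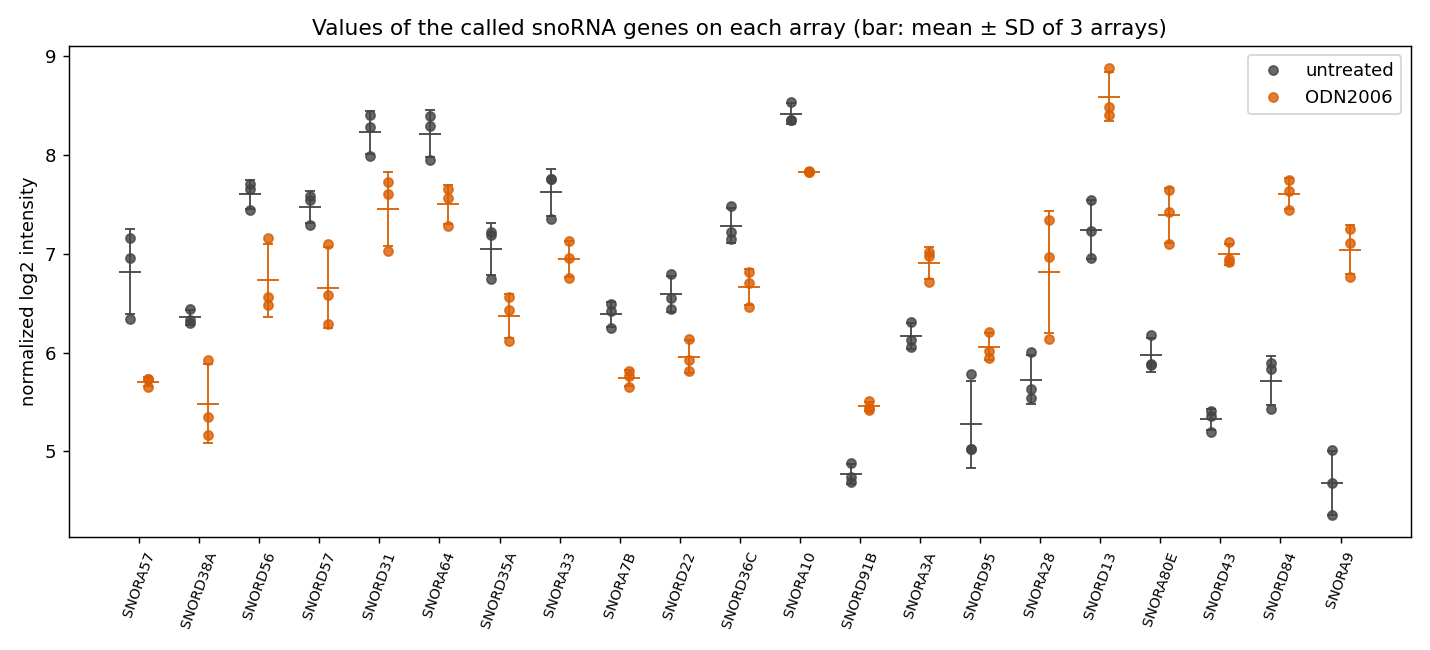
Normalized log2 intensity of the 21 called members on each array (points; bars, mean ± SD of 3 arrays), in the order of the fitted change, falls at left and rises at right. In all 21 the 3 values of one group lie above the 3 of the other, with the smallest gaps for SNORA28 and SNORD95.

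Of the 101 members, the groups did not overlap in 17 that were higher and 16 that were lower. Of all tested genes, 8.48% were so separated upward and 12.4% downward, and the members were not tested against these shares. The 17 include SNORA9, SNORD43, SNORD91B, SNORD95, SNORD11B and SNORA16A, which entered through the ODN2006 arrays alone. The calls SNORD13, SNORD43, SNORD84, SNORA80E and SNORA9 held under every alternative that gave a value, and the other 16 were lost under at least 1. No call turned direction. The count of falls depended strongly on single arrays: leaving out untreated replicate 1, 2 or 3 gave 12, 1 and 3 falls, and leaving out ODN2006 replicate 1, 2 or 3 gave 3, 6 and 4.

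Of the 9 scaRNA genes, SCARNA9, which guides methylation of a small nuclear RNA, had the largest change. It read 6.95, 7.48 and 7.55 untreated and 7.84, 8.22 and 7.80 after ODN2006 (0.63 ± 0.19 SE, limma adjusted p = 0.0953, and 0.027 with the replicate block, where it was called). SCARNA18 read 5.40, 5.40 and 5.51 untreated and 5.62, 5.94 and 5.82 after ODN2006 (0.36, limma adjusted p = 0.256). In these 2 genes the groups did not overlap.

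SCARNA3 read 6.81, 7.15 and 7.49 untreated and 7.19, 7.56 and 7.22 after ODN2006 (0.17). SCARNA16 read 5.80, 6.05 and 6.44 untreated and 6.42, 6.39 and 6.47 after ODN2006 (0.33). SCARNA10 read 7.20, 6.91 and 6.93 untreated and 7.10, 6.82 and 7.01 after ODN2006 (-0.03). The groups of each of these overlapped, and no difference passed. SCARNA12 read 6.27, 5.81 and 6.21 untreated and 5.15, 5.93 and 6.28 after ODN2006 (-0.31), and SCARNA4 read 5.81, 5.66 and 5.47 untreated and 5.44, 6.19 and 6.05 after ODN2006 (0.25). Both were detected on 2 ODN2006 arrays and overlapped. SCARNA13 and SCARNA23 changed by -0.10 and -0.20 without passing.

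Members detected on all arrays of a single group entered through that group, which favours a difference in its direction. Of the 8 that needed the ODN2006 arrays, SNORA9, SNORD43, SNORD91B and SNORD95 were called. SNORD11B, within NOP58, a gene of the box C/D core, read 4.81, 5.41 and 5.40 untreated and 5.77, 6.0 and 5.81 after ODN2006 (0.65, limma adjusted p = 0.0687, and 0.0172 with the replicate block). SNORA16A, within SNHG12, read 5.09, 5.52 and 5.58 untreated and 5.58, 6.08 and 6.01 after ODN2006 (0.49, limma adjusted p = 0.199, and 0.0255 with the block). In SNORD11B the groups stood apart. In SNORA16A they did not overlap either, but the lowest treated and highest untreated array both rounded to 5.58. SNORA27 read 5.02, 5.89 and 5.43 untreated and 5.76, 5.92 and 5.93 after ODN2006 (0.43). SNORD69 read 5.08, 5.78 and 5.48 untreated and 6.10, 5.80 and 5.69 after ODN2006 (0.42). The groups of SNORA27 and SNORD69 overlapped.

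Of the 15 that needed the untreated arrays, SNORD38A alone was called. SNORD87, within SNHG6, read 5.37, 5.42 and 5.97 untreated and 4.68, 4.82 and 5.39 after ODN2006 (-0.63, limma adjusted p = 0.153, and 0.00781 with the block), so within each replicate number it was lower although the groups overlapped. SNORD99 read 5.46, 5.71 and 6.41 untreated and 4.98, 5.83 and 5.58 after ODN2006 (-0.40). SNORD59B read 5.29, 5.83 and 5.89 untreated and 5.22, 5.58 and 5.11 after ODN2006 (-0.37). These 2 genes did not pass in either fit, and their groups overlapped. SNORD87 and SNORD59B were each detected on 1 ODN2006 array, so the size of their falls reaches into background.

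SNORD46 read 5.27, 5.56 and 5.99 untreated and 5.13, 5.22 and 5.79 after ODN2006 (-0.23). SNORD14D read 5.65, 5.47 and 5.79 untreated and 5.06, 5.47 and 5.82 after ODN2006 (-0.19). SNORD110 read 5.47, 5.62 and 5.75 untreated and 5.29, 5.48 and 5.93 after ODN2006 (-0.05). These box C/D genes overlapped between groups, as did SNORD1A, which read 5.33, 5.54 and 6.0 untreated and 5.39, 6.32 and 6.07 after ODN2006 (0.30).

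Among box H/ACA genes of this kind, SNORA22 read 5.49, 5.87 and 6.04 untreated and 5.27, 5.58 and 5.60 after ODN2006 (-0.32). SNORA52 read 5.44, 5.96 and 6.13 untreated and 5.10, 5.88 and 5.73 after ODN2006 (-0.27). SNORA32 read 5.83, 6.02 and 6.54 untreated and 5.40, 5.96 and 6.25 after ODN2006 (-0.26). Each was lower within every replicate number but overlapped between groups. SNORA29 read 5.31, 5.60 and 5.51 untreated and 5.24, 5.39 and 5.37 after ODN2006 (-0.14), and SNORA26 read 5.87, 5.42 and 5.55 untreated and 5.40, 6.11 and 5.42 after ODN2006 (0.03). None of these 5 passed with or without the block.

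The brightest probes of each class did not pass. SNORA61, within SNHG12, read 9.32, 9.71 and 10.11 untreated and 8.67, 9.03 and 9.37 after ODN2006 (-0.69, limma adjusted p = 0.123, and 0.00456 with the replicate block, where it was called lower). It was lower in every replicate number, and the groups overlapped. SNORA67 read 9.60, 9.97 and 9.98 untreated and 9.49, 9.81 and 9.53 after ODN2006 (-0.24), and SNORA70 read 8.95, 9.38 and 9.66 untreated and 8.60, 9.30 and 9.18 after ODN2006 (-0.30).

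SNORD104 read 9.09, 9.13 and 9.54 untreated and 9.44, 9.48 and 9.97 after ODN2006 (0.38). SNORD16 read 8.61, 8.80 and 9.02 untreated and 8.68, 9.0 and 9.17 after ODN2006 (0.14). SNORD35B read 8.49, 8.70 and 9.14 untreated and 8.20, 8.40 and 8.38 after ODN2006 (-0.45). SNORD104 and SNORD16 were higher within each number and overlapped between groups, while SNORD35B was lower on all ODN2006 arrays. The log2 changes of the 80 uncalled members ran from -0.69 to 0.65.

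By class, over members detected on all 6 arrays, the median log2 change was -0.20 for box C/D, -0.10 for box H/ACA and 0.17 for scaRNA genes, beside -0.05 over all tested genes. Of all 101 members, 61 were below 0 (60.4%), beside 61.0% of all tested genes. Within replicate numbers 1, 2 and 3, the median difference of box C/D genes was -0.12, -0.19 and -0.26, that of box H/ACA genes -0.10, -0.09 and -0.04, and that of scaRNA genes 0.25, 0.34 and 0.08. Over all genes it was -0.05, -0.05 and -0.04. The sign of the box H/ACA median turned to 0.03 without ODN2006 replicate 1, and the scaRNA median was 0.35 without untreated replicate 3. The differences between classes were not tested.

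Signals also differed between replicate numbers. Relative to each gene's untreated mean, the median box C/D gene stood at -0.20, 0.05 and 0.17 on the untreated arrays and at -0.33, -0.09 and -0.10 on the ODN2006 arrays. Box H/ACA genes stood at -0.21, 0.05 and 0.15 untreated and at -0.36, -0.03 and 0.04 after ODN2006. Untreated replicate 1 was the lowest of its group in 81 of 101 members and ODN2006 replicate 1 in 71. ODN2006 replicate 1 also had the fewest detected probes, 13454. The part of this array in the results was not tested beyond leaving it out.

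**Figure D3:**
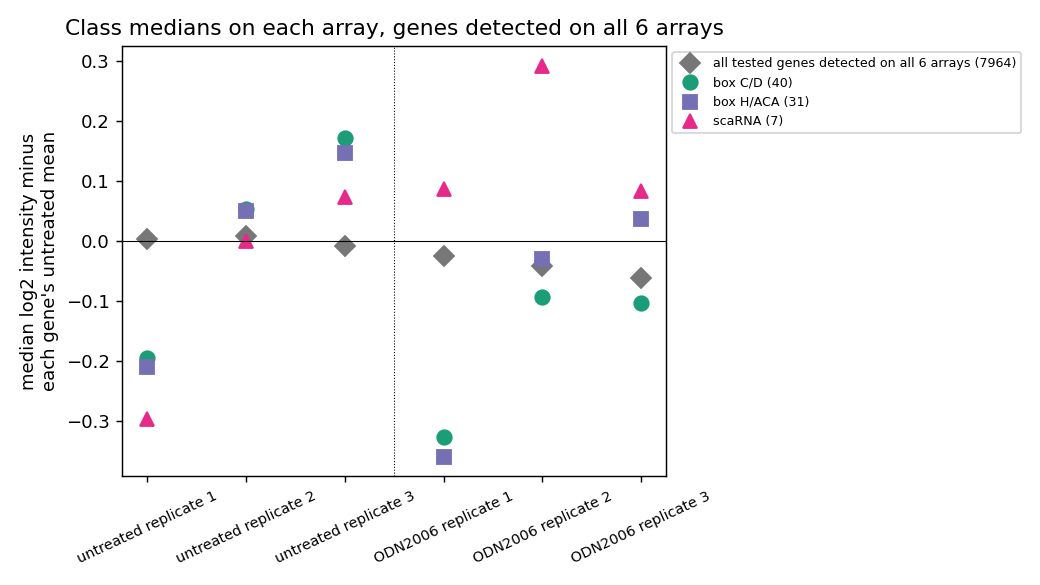
Median log2 intensity of each class on each array, relative to each gene's untreated mean, for members detected on all 6 arrays (40 box C/D, 31 box H/ACA, 7 scaRNA) and for all 7964 genes so detected. Box C/D and box H/ACA medians are lowest on replicate 1 of both groups, and the median of all genes stays within 0.1 of 0 on every array.

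By the RefSeq annotation of GRCh38.p14, 99 members lay within the span of another gene, and SNORD13 and SNORA50C did not. These members had 67 distinct hosts, of which 48 were tested, 10 had no named probe and 9 were not detected on all arrays of a group. By the brightest probe of each host, SNHG15 alone was called higher and SNHG1 alone lower, while another probe of EIF5 was called higher. The call of SNHG1 was lost whichever array was left out (adjusted p from 0.0523 to 0.205 over the 6 limma fits), with median scaling, with the deposited log2 values and without the filter on dim probes. The 14 tested ribosomal protein hosts changed by -0.13 to 0.17. Of 31 members in ribosomal protein hosts, 2 were higher and 6 lower, and of 25 in non-coding hosts 1 was higher and 2 lower. Of 42 in other coding hosts, 5 were higher and 3 lower. Among all tested genes, 3.41% were called higher and 1.81% lower. Neither the hosts nor the members by host type were tested against these shares, and host types were not tested against each other.

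For 16 called members the host was tested, and in 13 of them the host did not pass at its brightest probe. EIF5, the host of SNORA28, is among these 13, although another of its probes rose by 0.78 (limma adjusted p = 0.0334). Differences from a host below use its brightest probe. The member minus its host, taken on each array, differed between groups by -0.68 to -0.02 for the 9 falls and by 0.78 to 1.96 for the 5 rises detected on at least 1 untreated array. In 10 of the 16, SNORA9 and SNORD91B among them, the exact permutation test over arrays gave its smallest possible two-sided p, 0.1. This was 0.16 adjusted over the 16, so 3 against 3 arrays could not pass. The 16 were chosen because they were called, which favours such separation, and no count over uncalled members is given beside it. Untreated values of SNORA9 and SNORD91B in this test lay below detection, as did that of SNORD43 on untreated replicate 2. The largest differences of a member from its host were 1.96 ± 0.14 SE for SNORD84, 1.85 ± 0.17 for SNORA80E and 1.63 ± 0.10 for SNORD43. SNORD22 and SNORD31 differed from SNHG1 by -0.02 ± 0.19 and -0.16 ± 0.32, less than their error. SNORA9, undetected when untreated, exceeded SNHG15 by at least 0.94 on the log2 scale, the log2 of its bound (1.81) less the change of SNHG15, and SNORD91B exceeded TSR1 by at least 0.26 in the same way.

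**Figure D4:**
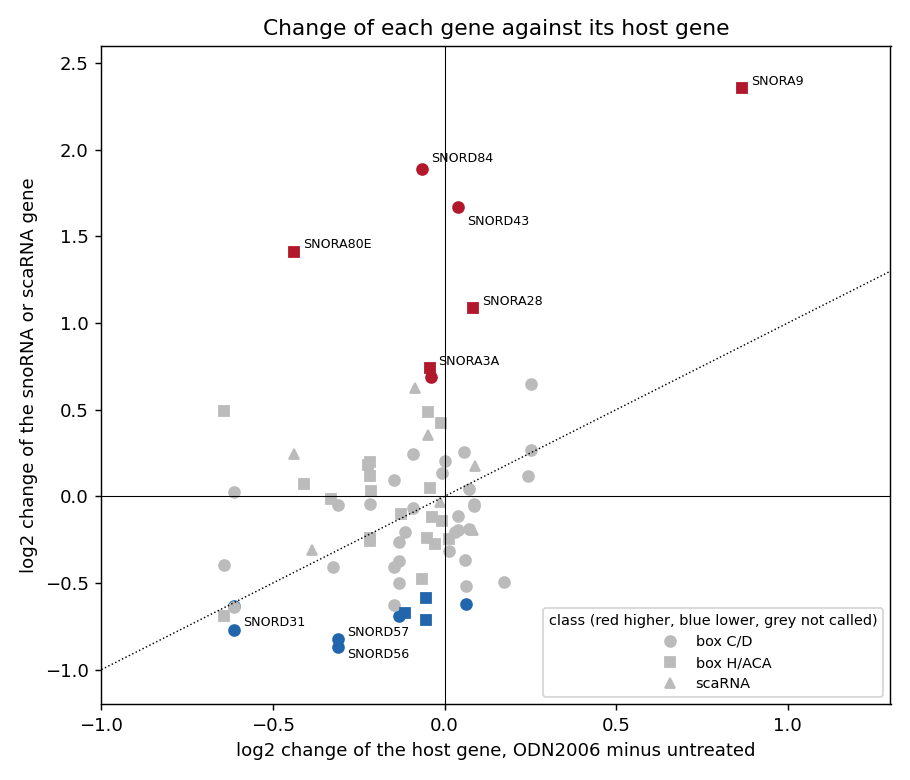
Log2 change of each of the 75 members with a tested host (vertical axis) against that of its host (horizontal axis), both ODN2006 minus untreated; the dotted line marks equal change. Called members other than SNORA9, SNORD31, SNORD22 and SNORA80E lie close to the vertical line at a host change of 0, within 0.31 of it.

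The hosts whose genes moved are shown at their transcription start, since transcripts of many ribosomal protein and snoRNA host genes begin with a pyrimidine tract, known as a 5′ terminal oligopyrimidine motif, that couples their translation to growth signals. Each window of 30 bases, from RefSeq, GRCh38.p14, runs 5′ to 3′ on the gene's strand with 15 bases before and 15 from the annotated start, and capitals mark the longest run of C or T. Of 13 such hosts in the table, 10 are shown, first 5 with a lower member, then 5 with a higher member. CSKMT, EIF5 and TSR1 are left out, and their longest runs were 6, 3 and 4 bases.
RPL7A, chr9:133348203-133348232, plus strand: ccacaaTTCCCTTTCCTTTCTCTCTCCTCC
RPL13A, chr19:49487593-49487622, plus strand: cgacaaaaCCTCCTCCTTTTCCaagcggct
RPS12, chr6:132814554-132814583, plus strand: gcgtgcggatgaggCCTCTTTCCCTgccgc
NOP56, chr20:2652617-2652646, plus strand: gagcgcgCTagccgcattgcgagccgaacc
SNHG1, chr11:62855871-62855900, minus strand: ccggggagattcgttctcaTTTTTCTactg
RPL27A, chr11:8682777-8682806, plus strand: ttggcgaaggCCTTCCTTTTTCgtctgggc
RACK1, chr5:181243892-181243921, minus strand: ggggggCTTTTCTCTCTCTCTTTCactgca
DDX39B, chr6:31541989-31542018, minus strand: accggaagtgaaggcagaTTTCCCTCCTTC
RPL3, chr22:39319609-39319638, minus strand: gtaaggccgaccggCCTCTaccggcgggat
KHDC4, chr1:155934399-155934428, minus strand: gtgacgagaggtggtagTCggatagttggc

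A run of at least 8 bases that are each C or T on the gene's strand was present in 13.4% of 27305 RefSeq start windows of this length and in 22 of the 55 hosts found in the table (40.0%). It was present in 3 of 6 hosts with a lower member, in 3 of 7 with a higher member and in 16 of 42 with no called member. These counts leave out hosts without a start window there. Such hosts include RPS2 and RPL32P3, which hold lower members, and SNHG15, which holds a higher member. Long runs thus stood at hosts of members that rose (RPL27A, RACK1, DDX39B), of members that fell (RPL7A, RPL13A, RPS12) and of members that were not called. A run is a description of these letters and not of translation.

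Members of 1 host were not always called together, which is not a test of a difference between them. The pairs below were chosen because 1 gene of each was called, which favours a difference. SNORD43 and SNORD95 also entered through the ODN2006 arrays alone, which favours their rise. On untreated replicate 2 SNORD43 (5.20) and SNORD95 (5.02) lay under the lowest detected signal, 5.25. On untreated replicate 3 SNORD95 (5.02) did too, with 5.21 as the lowest, so the size of these differences reaches into background. Several members were present for 22 hosts. In 11 of these no member was called, in RPS2 all were called lower, in 10 only some were called, and in none were members called in both directions. Within RPL3, SNORD43 rose, whereas SNORD83B read 7.34, 7.74 and 7.75 untreated and 7.26, 7.73 and 7.52 after ODN2006 (-0.11), and SNORD139 read 6.17, 6.31 and 6.23 untreated and 6.0, 6.21 and 5.92 after ODN2006 (-0.19). SNORD43 exceeded them by 1.78 ± 0.22 SE and 1.87 ± 0.17.

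Within RPL27A, SNORA3A rose and SNORA3B read 7.51, 7.76 and 7.95 untreated and 7.73, 7.85 and 7.78 after ODN2006 (0.05), a difference of 0.69 ± 0.14 SE. Within KHDC4, SNORA80E exceeded SCARNA4 by 1.17 ± 0.24. Within RACK1, SNORD95 exceeded SNORD96A by 1.01 ± 0.38, and SNORD96A read 7.04, 7.33 and 7.44 untreated and 6.89, 7.01 and 7.26 after ODN2006 (-0.22). The partners of the rising genes thus stayed within 0.25 of no change.

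Among falls, SNORD31 differed from SNORD25 of the same host, SNHG1, by -0.80 ± 0.16 SE. SNORD25 read 5.89, 6.26 and 6.0 untreated and 5.85, 6.20 and 6.17 after ODN2006 (0.03), while SNORD30 read 6.07, 6.81 and 6.63 untreated and 5.73, 5.86 and 6.02 after ODN2006 (-0.64, limma adjusted p = 0.0972, and 0.0217 with the block). SNORD22, SNORD30 and SNORD31 were thus all lower on each ODN2006 array, and SNORD25 overlapped. SNORD56 and SNORD57 differed from SNORD110 in NOP56 by -0.82 ± 0.31 and -0.78 ± 0.29, and SNORA33 differed from SNORD100 in RPS12 by -0.46 ± 0.15.

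SnoRNAs of RPL13A introns are known from hamster cells for a part in the response to lipotoxic stress. Beside SNORD35A, SNORD32A, SNORD33 and SNORD34 changed by -0.26, -0.37 and -0.50 and did not pass. Within RPL7A, SNORD36A read 6.78, 6.70 and 6.89 untreated and 6.10, 6.21 and 6.51 after ODN2006 (-0.52, limma adjusted p = 0.0923, and 0.0263 with the block), -0.10 ± 0.18 from SNORD36C. In all, 17 such pairs were compared, and 9 reached the smallest exact permutation p of 0.1 (0.189 adjusted over the pairs), below which 3 against 3 arrays cannot go, so this test could not call any pair.

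**Figure D5:**
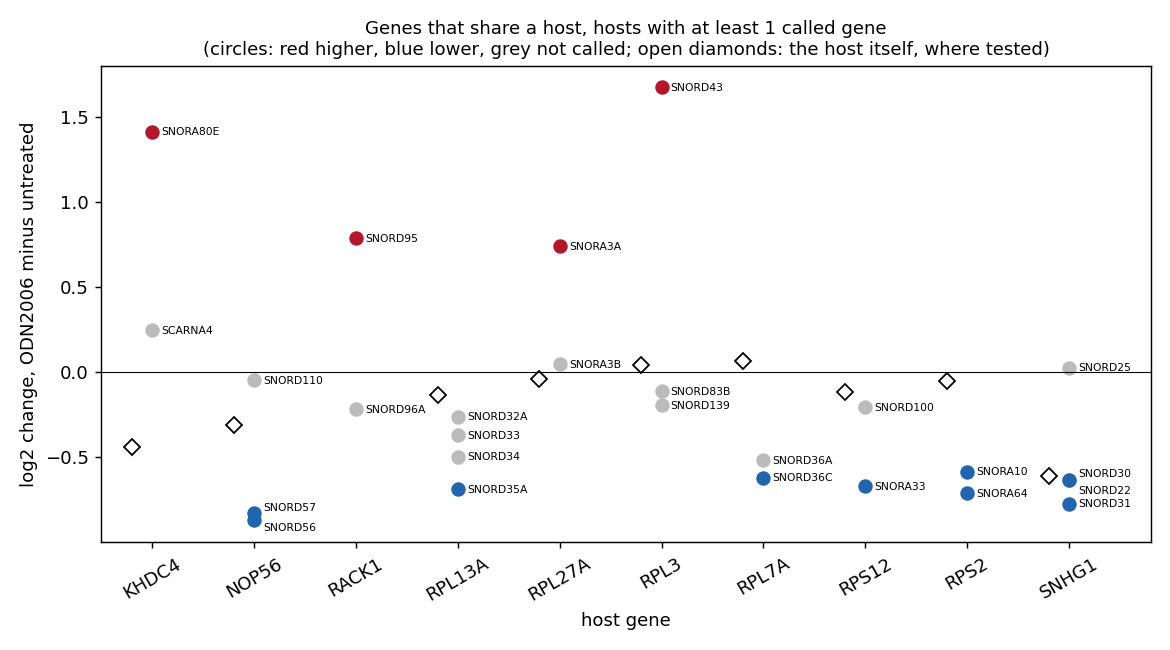
Log2 change (ODN2006 minus untreated) of members that share a host, for 10 hosts with several members of which at least 1 was called; circles are members (red higher, blue lower, grey not called) and open diamonds the host where it was tested. SNORD43, SNORA80E, SNORD95 and SNORA3A stand above the other members of their hosts, and the 2 members in RPS2 fell together.

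Genes of the machinery that builds snoRNA particles did not pass in the limma fit. This held for the 8 core proteins (median -0.03, none at an unadjusted p under 0.05), with FBL, the methyltransferase fibrillarin, at 0.08 and NOP10, a box H/ACA protein, at -0.17. It held for 9 assembly factors (median 0.00, 1 lower unadjusted), with ZNHIT3 at -0.27 and the ATPase RUVBL2 at -0.09. Of 9 Cajal body genes (median -0.13) none passed and 1 was lower unadjusted: COIL, which encodes the Cajal body scaffold coilin, read 8.69, 8.56 and 8.60 untreated and 8.28, 8.35 and 8.13 after ODN2006 (-0.37, limma adjusted p = 0.212). Its ODN2006 arrays all lay below its untreated arrays. GEMIN4 had 0.01. Of 21 genes of snoRNA processing, capping and decay (median -0.09) none passed, also unadjusted, with the exosome genes EXOSC10 and EXOSC1 at -0.17 and -0.18. With the replicate block no gene of these lists passed. Of 15 tested genes in the list of non-coding snoRNA hosts, which also holds TAF1D, annotated here as protein-coding, SNHG15 rose and SNHG1 fell (median -0.17), SNHG5 and SNHG6 had -0.17 and -0.15, and with the block SNHG7 fell as well (-0.53).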

How the data were processed

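The authors deposited probe intensity on a linear scale, non-normalized per the file headers, with a detection p-value per probe and array. Per the submitters' processing notes, limma produced the deposited log2 values (steps and version are not given in the sources used here). Their medians and lowest values differed between groups (4.67 and 4.19 untreated, 4.59 and -1.57 after ODN2006). This points to separate normalization of the groups, so they served only as an alternative. Whether the groups were also cultured or hybridised apart is not known here. Such a difference would coincide with the treatment and could not be told apart from it.

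Intensities were corrected with normexp, with negative controls inferred from the detection p-values, given an offset of 16 and quantile-normalized over the 6 arrays (neqc, limma 3.58.1, R 4.3.3). Probes detected at p under 0.01 on all 3 arrays of a group were tested with lmFit and eBayes, two-sided, with Benjamini-Hochberg adjustment over 13816 probes and a threshold of 0.05. A gene is represented by its brightest tested probe. SNORA73B had a second tested probe. Neither passed, though the brightest was called higher with the replicate block (limma adjusted p = 0.0258). Of 47218 probes, 30107 had 1 symbol, and 30068 were renamed or checked through RefSeq GRCh38.p14. The limma fit was tested on simulated data. The simulation drew noise independently for each probe and array and changed only brighter probes. It thus does not cover dim members or deviations shared by arrays of the same replicate number.

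Hosts are the shortest coding or non-coding RefSeq gene whose span holds the member. The design asked for the same strand, which the table does not give, so strand, intron and exon were not tested. RefSeq sequences of the members were not used here. For named members all array values are given for called ones, those detected on all arrays of a single group, the 3 brightest and the 3 most changed per class, and those sharing a host with a called one where a comparison turns on them. Hosts are given per array where called or discussed.

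Members and lists were chosen with earlier results of these data known, and host types, start windows, pairs within a host and medians by replicate number after values were seen. Same-numbered arrays of the groups deviated together (correlations 0.41, 0.35 and 0.46). All others were below 0, which adds little, as deviations from a group mean sum to 0. The labels do not say that the numbers pair samples, and what same-numbered arrays share was not tested. The main fit and the exact permutation tests took the arrays as unpaired. Alternatives tried were the deposited values, median scaling, no background correction, other filters, a trended robust prior, array weights, mean of probes, the replicate block and leaving out each array. 1 host gene is not reported here.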

Additional observations from a re-analysis of the deposited data

How the results depend on the processing

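Signal over background and 3 arrays per group limit these data, and dim members sit near the lowest detected signal. Members lower after ODN2006, 12 in the fit as reported, numbered 4 without background correction, 5 with median scaling, 2 without a filter on dim probes and 1 to 12 when any single array was dropped, which also leaves fewer samples. With the replicate block 18 were lower and 13 higher. Members higher numbered 5 with the stricter filter, which removes members not detected on all 6 arrays, and 6 to 8 with 1 array left out. Hosts lower numbered 0 with median scaling, with the deposited log2 values, without the filter and in every fit with 1 array left out (0 to 0). With 1 array left out the median change was 0.055 to 0.35 for scaRNA, -0.20 to 0.031 for box H/ACA and -0.31 to -0.10 for box C/D genes. Of 310 values of the 21 called members under alternatives, 214 stayed called and none turned direction, and the cause of the other losses was not tested. SNORA57 lost its call only without the filter (adjusted p = 0.0649). The median change of all genes stayed within 0.1 of 0 under each setting. SNORD87 and SNORD30 are among the members called only with the block.

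Uncalled genes with a log2 change near 0 turned sign. With median scaling it was -0.0022 for SNORD25, 0.075 for RPL4, 0.044 for TCP1, 0.055 for RPL21 and 0.021 for NCAPD2. With the deposited log2 values it was 0.044 for RPL4, 0.033 for TCP1, 0.043 for RPL21 and 0.021 for NCAPD2. With array weights it was 0.016 for SNORD110, 0.070 for TCP1, 0.0042 for RPL27A and 0.073 for RPL21. With the mean of probes it was -0.00061 for EIF4A1, -0.0099 for RPL3 and 0.073 for TCP1. With 1 array left out the log2 change ran from -0.16 to 0.00093 for CEP295, -0.13 to 0.018 for DDX39B, -0.011 to 0.043 for EIF4A1, -0.040 to 0.19 for EIF5, -0.0068 to 0.20 for HSPA8, -0.14 to 0.18 for NCAPD2, -0.15 to 0.15 for RPL21, -0.11 to 0.037 for RPL27A, -0.00093 to 0.062 for RPL3, -0.14 to 0.12 for RPL4, -0.0041 to 0.11 for RPL7A, -0.12 to 0.062 for RPLP2, -0.14 to 0.036 for RPS2, -0.096 to 0.061 for SCARNA10, -0.55 to 0.010 for SCARNA12, -0.25 to 0.015 for SCARNA13, -0.00036 to 0.35 for SCARNA3, -0.20 to 0.16 for SNORA26, -0.069 to 0.15 for SNORA3B, -0.23 to 0.090 for SNORD110, -0.36 to 0.010 for SNORD14D, -0.055 to 0.14 for SNORD25, -0.25 to 0.0075 for SNORD83B, -0.43 to 0.048 for TAF1D, -0.13 to 0.10 for TCP1, -0.16 to 0.064 for TMEM167A and -0.15 to 0.028 for TSR1.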
